A study of Mus musculus with 16 samples.

Results

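A set of 10 genes of natural killer (NK) cells was followed here across 4 groups of mouse lungs, namely Klra7, Klra8, Klrb1c, Klrd1, Klrk1, Ncr1, Gzma, Gzmb, Prf1 and Nkg7. They are the genes of this name among the annotated spots of the array, and they cover 16 of its 62976 spots and 10 of the 20863 named genes. Whole-lung RNA of C57BL/6 mice aged 9 to 12 weeks was hybridised to 16 single-colour Agilent arrays, 1 per sample. The groups were bleomycin with a CAV1 target site blocker (6 arrays), bleomycin with a control blocker (6), PBS with the CAV1 blocker (2) and PBS with the control blocker (2). Such a blocker is a short oligonucleotide that masks a site where a microRNA would bind, for the CAV1 blocker in the transcript of the caveolin gene Cav1, and bleomycin is a drug that injures the lung and leads to fibrosis. Every lung had received a blocker through the trachea 4 and 2 days ahead of the bleomycin or PBS instillation and again 4 days after it, so no group was untreated. The CAV1 blocker was dosed at 5 mg/kg and bleomycin at 1 unit/kg, and the day of lung collection is not given in the sources used here. The series title names the question, which is how the CAV1 blocker bears on the response of the lung to bleomycin.

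NK cells are innate lymphocytes that kill infected or stressed cells, and the lung is rich in them. Whether one of them fires depends on the balance of inhibitory receptors, which read MHC class I on a target cell, and activating receptors, which read viral or stress-induced ligands. Klra7 encodes Ly49G, an inhibitory receptor for MHC class I, and Klra8 encodes Ly49H, an activating receptor for a cytomegalovirus protein. Klrd1 encodes CD94, which pairs with receptors of the NKG2 family. Klrb1c (NK1.1), Klrk1 (NKG2D) and Ncr1 (NKp46) are activating receptors. Killing is carried out by granules that hold the pore former perforin (Prf1) and the serine proteases granzyme A and granzyme B (Gzma, Gzmb), and Nkg7 is a granule membrane protein that takes part in their release. Cytotoxic T cells use Gzma, Gzmb, Prf1, Nkg7, Klrd1 and Klrk1 as well, so these genes do not mark NK cells alone.

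Klra7 and Klra8 are close paralogs in 1 cluster of Klra genes, and their promoters are shown to let a reader see how alike these 2 promoters are. Transcript and probe sequences were not compared. Both are taken from RefSeq (GRCm38.p6) and run from 250 bases before to 50 bases after the gene's start. Capitals mark bases that differ from the other promoter in a global alignment or that stand against a gap in it.
Klra7 (chr6:130233273-130233572, minus strand): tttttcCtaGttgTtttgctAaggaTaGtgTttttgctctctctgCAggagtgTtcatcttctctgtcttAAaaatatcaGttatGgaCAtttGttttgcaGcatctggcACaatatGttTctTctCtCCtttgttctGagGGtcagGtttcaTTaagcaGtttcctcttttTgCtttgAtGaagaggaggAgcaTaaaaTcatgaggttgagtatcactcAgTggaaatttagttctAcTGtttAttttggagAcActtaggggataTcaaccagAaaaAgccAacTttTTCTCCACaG
Klra8 (chr6:130129849-130130148, minus strand): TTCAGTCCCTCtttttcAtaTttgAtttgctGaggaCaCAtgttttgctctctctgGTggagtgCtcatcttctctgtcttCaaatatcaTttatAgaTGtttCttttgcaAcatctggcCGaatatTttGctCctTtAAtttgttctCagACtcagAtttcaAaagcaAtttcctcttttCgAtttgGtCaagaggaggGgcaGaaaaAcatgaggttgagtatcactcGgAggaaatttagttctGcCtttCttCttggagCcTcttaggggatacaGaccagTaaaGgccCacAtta
These 2 promoters were identical at 238 of 314 aligned positions (75.8%). Over 55 pairs of promoters of Klra genes the identity ranged from 44.8% to 86.0% with a median of 53.0%, and was highest for Klra4 and Klra8. Pairs of a Klra promoter with that of Gzma, Gzmb or Prf1, aligned in the same way, reached 43.9% to 50.9% with a median of 48.6%. Promoters of the 3 killing effectors that fell with bleomycin are shown for the motifs they hold, which are in capitals.
Gzma (chr13:113100932-113101231, minus strand): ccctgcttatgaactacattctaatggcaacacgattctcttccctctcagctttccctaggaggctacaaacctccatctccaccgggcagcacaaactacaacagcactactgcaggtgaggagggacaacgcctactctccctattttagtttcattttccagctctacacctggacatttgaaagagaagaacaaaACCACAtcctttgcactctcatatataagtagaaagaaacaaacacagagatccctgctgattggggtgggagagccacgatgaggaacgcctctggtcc
Gzmb (chr14:56262285-56262584, minus strand): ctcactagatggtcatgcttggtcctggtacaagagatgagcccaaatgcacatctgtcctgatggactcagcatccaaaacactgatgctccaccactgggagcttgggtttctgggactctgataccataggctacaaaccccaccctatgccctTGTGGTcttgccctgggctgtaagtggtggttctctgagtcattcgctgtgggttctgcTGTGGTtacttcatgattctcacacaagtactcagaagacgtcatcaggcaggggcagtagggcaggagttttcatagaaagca
Prf1 (chr10:61297586-61297885, plus strand): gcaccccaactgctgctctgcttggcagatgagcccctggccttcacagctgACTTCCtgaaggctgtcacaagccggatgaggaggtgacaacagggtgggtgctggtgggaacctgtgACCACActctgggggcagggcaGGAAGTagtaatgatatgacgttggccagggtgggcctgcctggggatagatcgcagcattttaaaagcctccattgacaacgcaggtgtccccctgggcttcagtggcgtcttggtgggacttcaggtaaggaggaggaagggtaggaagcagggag
Promoters of 9 of the 10 genes were matched, and Klrd1 had no entry. Motifs were searched as fixed letters on both strands, and no match of one motif overlapped another in these 9 promoters. TGTGGT, the core that RUNX factors bind, was found in 7 of the 9 (Klrb1c, Klrk1, Ncr1, Gzma, Gzmb, Prf1 and Nkg7) and in 16.8% of 32817 promoters of the same length. GGAAGT, a core of ETS factors, was found in Klrb1c and Prf1 and in 23.8% of all promoters. AGGTGTG, a core of T-box factors, was found in Nkg7 and in 5.84% of all promoters. These letters were not in the windows of Klra7 and Klra8. A match describes the sequence and was not tested for binding.

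The deposited values are log2 intensities with nearly the same distribution in every array, and the array medians lay between 6.51 and 6.52. Correlations between arrays ranged from 0.973 to 0.996. The mean of 10 lung epithelium and endothelium markers lay between 14.25 and 14.88 in all 16 arrays, with Sftpc, Sftpb and Ager among them. A group of 5 arrays stood apart by tissue. In both PBS arrays with the CAV1 blocker, bleomycin CAV1 blocker array 3 and bleomycin control blocker arrays 2 and 6, the mean of 12 skeletal muscle markers was 7.05 to 8.41 and that of 13 squamous epithelium markers was 6.95 to 7.04, against 10.21 to 12.82 and 10.24 to 11.40 in the other 11 arrays. The RNA integrity number was 10 for arrays 1 and 5 of bleomycin with the control blocker and 9 for the rest. Separate animals per sample are not stated in the labels, and the p-values below cover the spread between samples, which may be technical.

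Bleomycin lungs had less of most of these transcripts than PBS lungs, and in the averaged effect the difference was largest for granzyme A. In the effect averaged over both blockers, 6 of the 10 genes fell past the threshold (adjusted p under 0.05), namely Gzma, Klra8, Prf1, Klrb1c, Gzmb and Klra7, and none rose. Of all 20304 genes tested, 5.93% were called in this comparison and 1.68% were called lower. The log2 differences of the 10 genes ranged from -0.84 to -0.17 with a median of -0.45, against a median of 0.01 over all genes. In whole-lung RNA, fewer cells of a type and less RNA per cell cannot be told apart.

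**Figure D1:**
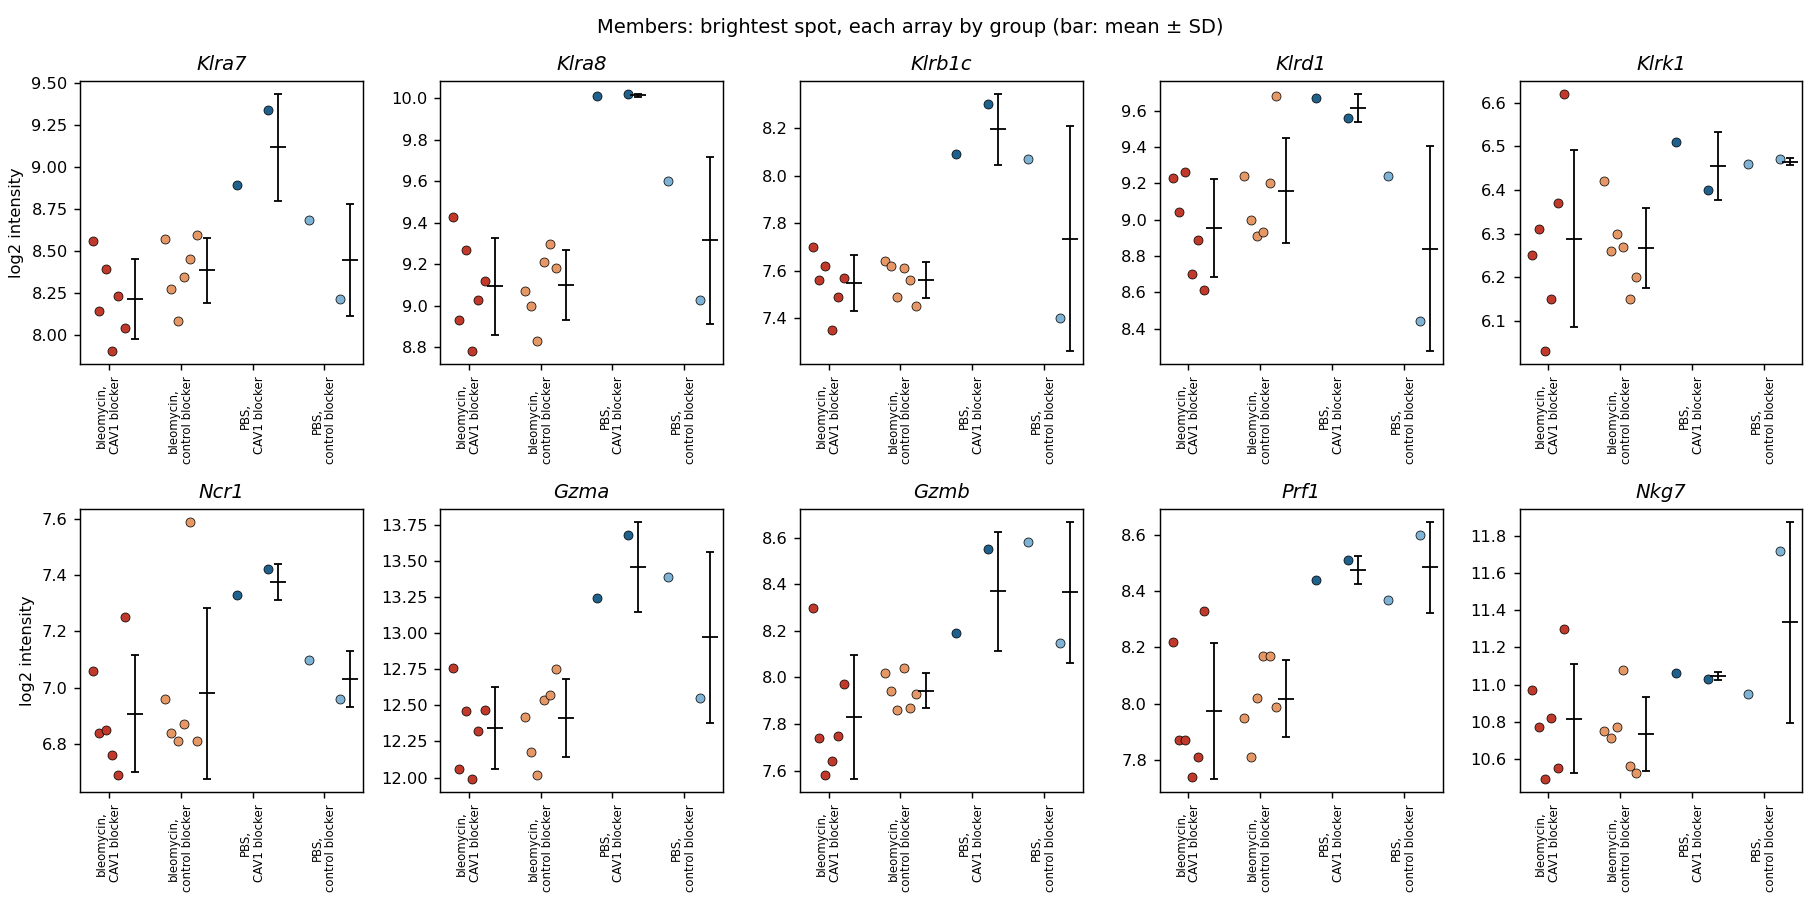
Log2 intensity of the brightest spot of each of the 10 genes (y axis, scaled per gene) in every array by group (x axis), 1 point per array, with the mean ± SD beside the points. Gzma lies at 13.24 and 13.68 in the PBS CAV1 blocker lungs, and its 12 bleomycin arrays lie between 11.99 and 12.76. PBS control blocker array 2 is the lowest of all arrays for Klrd1 (8.44) and the highest for Nkg7 (11.72).

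Among the cytotoxic genes, Gzma had the largest difference in the averaged effect and with the CAV1 blocker, and Nkg7 had the largest with the control blocker. Gzma had 11.99, 12.39 and 12.76 (lowest, median and highest log2 intensity) in bleomycin lungs with the CAV1 blocker and 12.02, 12.48 and 12.75 in bleomycin lungs with the control blocker, against 13.24 and 13.68 in PBS lungs with the CAV1 blocker and 13.39 and 12.55 in PBS lungs with the control blocker. Of the 4 PBS arrays, 3 were above all 12 bleomycin arrays, and PBS control blocker array 2 was inside their range. Its averaged log2 difference was -0.84 (95% interval -1.20 to -0.48, limma adjusted p = 0.00907), a level of 0.560 of that in PBS lungs. Prf1, the pore former, had 7.74, 7.87 and 8.33 in bleomycin lungs with the CAV1 blocker and 7.81, 8.004 and 8.17 with the control blocker, against 8.44 and 8.51 in PBS lungs with the CAV1 blocker and 8.37 and 8.60 with the control blocker. All 12 bleomycin arrays were below all 4 PBS arrays for Prf1, which 0.433% of all genes showed in this direction, and for no other of the 10 genes. The averaged log2 difference of Prf1 was -0.48 (SE 0.10, limma adjusted p = 0.0124).

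Gzmb had 7.58, 7.74 and 8.30 in bleomycin lungs with the CAV1 blocker and 7.86, 7.94 and 8.04 with the control blocker, against 8.19 and 8.55 in PBS lungs with the CAV1 blocker and 8.58 and 8.15 with the control blocker. Bleomycin CAV1 blocker array 1 was the one bleomycin array inside the PBS range. The averaged log2 difference of Gzmb was -0.48 (SE 0.12, limma adjusted p = 0.0237). Nkg7, the granule membrane gene, had 10.49, 10.79 and 11.30 in bleomycin lungs with the CAV1 blocker and 10.52, 10.73 and 11.08 with the control blocker, against 11.06 and 11.03 in PBS lungs with the CAV1 blocker and 10.95 and 11.72 with the control blocker. The groups overlapped, and PBS control blocker array 2 was the highest of all 16. The averaged log2 difference of Nkg7 was -0.41 on this spot (limma adjusted p = 0.133) and -0.63 on its dimmer spot (adjusted p = 0.0276 over 30638 named spots), so its call depended on the spot.

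Both Ly49 receptors were called lower in the averaged effect, Klra7 with less margin than Klra8. Klra8 had 8.78, 9.08 and 9.43 in bleomycin lungs with the CAV1 blocker and 8.83, 9.12 and 9.30 with the control blocker, against 10.01 and 10.02 in PBS lungs with the CAV1 blocker and 9.60 and 9.03 with the control blocker. Klra7 had 7.90, 8.19 and 8.56 in bleomycin lungs with the CAV1 blocker and 8.08, 8.39 and 8.59 with the control blocker, against 8.89 and 9.34 in PBS lungs with the CAV1 blocker and 8.68 and 8.21 with the control blocker. For both genes 3 PBS arrays were above all 12 bleomycin arrays, and PBS control blocker array 2 was above 4 of the 12. The averaged log2 difference was -0.57 for Klra8 (SE 0.12, limma adjusted p = 0.0112) and -0.49 for Klra7 (SE 0.13, limma adjusted p = 0.0392). Leaving out 1 array at a time ended the Klra7 call in 11 of 16 cases and the Klra8 call in 2. A log2 fold minimum of 1 ended both calls. Of 14 other settings, 5 ended the Klra7 call (array weights, the replicate number as a block, a muscle covariate, a squamous covariate and the block of low and high arrays). The replicate number as a block was the 1 of these 14 that ended the Klra8 call.

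Of the other receptors, Klrb1c fell and the rest did not pass the threshold. Klrb1c, the NK1.1 antigen of this mouse strain, had 7.35, 7.56 and 7.70 in bleomycin lungs with the CAV1 blocker and 7.45, 7.58 and 7.64 with the control blocker, against 8.09 and 8.30 in PBS lungs with the CAV1 blocker and 8.07 and 7.40 with the control blocker. Its averaged log2 difference was -0.41 (SE 0.10, limma adjusted p = 0.0202). PBS control blocker array 2 was above only 1 of the 12 bleomycin arrays. Klrd1, the shared CD94 chain, ranged from 8.61 to 9.26 in bleomycin lungs with the CAV1 blocker and from 8.91 to 9.68 with the control blocker, against 9.67 and 9.56 in PBS lungs with the CAV1 blocker and 9.24 and 8.44 with the control blocker. Here PBS control blocker array 2 was the lowest of all 16 arrays, and the averaged log2 difference was -0.17 (limma adjusted p = 0.684). Ncr1, the NKp46 receptor, had a difference of -0.26 (limma adjusted p = 0.328), and 1 bleomycin control blocker array, number 5, was the highest of all 16 at 7.59. Klrk1, the NKG2D receptor, was dim, below the array median in 15 of 16 arrays, and its difference was -0.18 (limma adjusted p = 0.279). A further 2 genes, Nkg7 and Klrk1, had an unadjusted p under 0.05, so 8 of 10 did in all, against 7.08% of all genes in this direction.

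Within each blocker the difference between bleomycin and PBS was examined next. With the CAV1 blocker, 2 of the 10 genes fell past the threshold, Klra8 (log2 difference -0.92, SE 0.17, limma adjusted p = 0.0379) and Klra7 (-0.91, SE 0.18, limma adjusted p = 0.0432), against 0.517% of all genes called and 0.172% called lower. Klrb1c (-0.65, limma adjusted p = 0.0505) and Gzma (-1.12, limma adjusted p = 0.0506) were just short of it. All 10 differences were negative, with a median of -0.59 against -0.01 over all genes. An unadjusted p under 0.05 was reached by 8 of the 10 genes, all lower, against 7.67% of all genes in this direction. The 6 bleomycin arrays lay below both PBS arrays for 7 genes (Klra7, Klra8, Klrb1c, Klrd1, Ncr1, Gzma and Prf1), which was so for 12.3% of all genes.

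The calls of Klra7 and Klra8 with the CAV1 blocker depended on single arrays. Both were lost without bleomycin CAV1 blocker array 2, 4, 5 or 6, without bleomycin control blocker array 1, 2 or 4, and without either PBS CAV1 blocker array, where no gene of the 10 was called. Without bleomycin CAV1 blocker array 3 or bleomycin control blocker array 3, 5 or 6, 1 gene was called. Without either PBS control blocker array 4 were called, and without bleomycin CAV1 blocker array 1 the count was 6. The log2 difference itself stayed between -0.99 and -0.86 for Klra8 and between -1.14 and -0.68 for Klra7.

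With the control blocker, none of the 10 genes was called by limma, against 2.41% of all genes. Gzma, Gzmb, Prf1 and Nkg7, the 4 cytotoxic genes, had an unadjusted p under 0.05, all lower, against 5.41% of all genes in this direction. Their log2 differences were -0.56 for Gzma, -0.42 for Gzmb, -0.47 for Prf1 and -0.60 for Nkg7. The receptors differed by -0.22 for Klra8, -0.06 for Klra7, -0.17 for Klrb1c, -0.20 for Klrk1, -0.05 for Ncr1 and 0.32 for Klrd1, and no receptor had an unadjusted p under 0.05. These values hung on the 2 PBS arrays. With PBS control blocker array 1 left out, the differences were -0.13 for Gzma, -0.20 for Gzmb, -0.58 for Prf1 and -0.99 for Nkg7. With array 2 left out, the differences were -0.98 for Gzma, -0.63 for Gzmb, -0.35 for Prf1 and -0.21 for Nkg7. Either fit leaves 1 array in that PBS group, so only the differences are given. Klra7 was 0.17 without array 1 and -0.30 without array 2, Klra8 was 0.07 and -0.50, Klrb1c was 0.16 and -0.51, and Klrd1 was 0.72 and -0.08. The difference between the cytotoxic genes and the receptors was not tested. The groups did not overlap for Klrk1, Gzmb and Prf1, lower with bleomycin, against 4.04% of all genes. The median of the 10 genes was -0.21, against 0.03 over all genes.

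**Figure D2:**
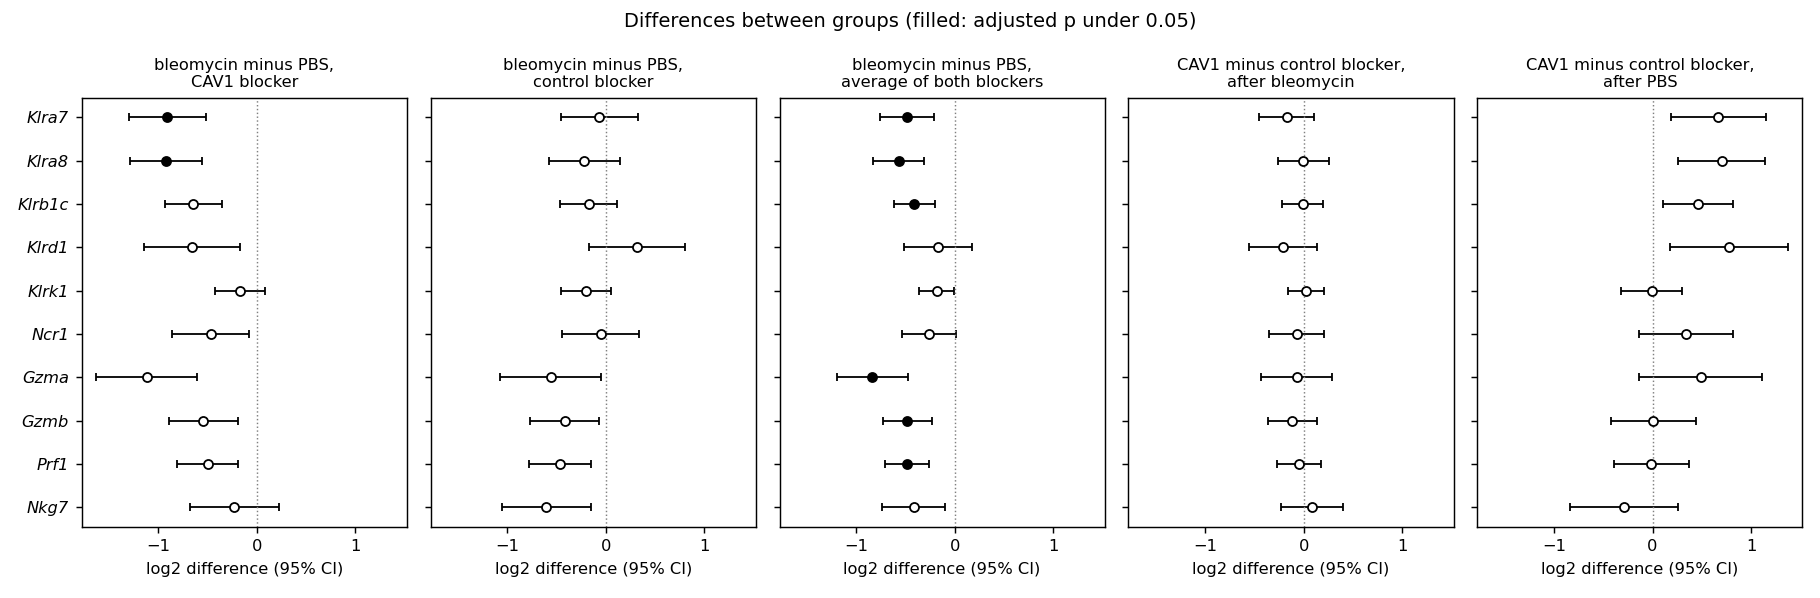
Log2 difference (x axis) with its 95% confidence interval for each of the 10 genes (y axis) in 5 comparisons; filled points have a limma adjusted p under 0.05. The averaged bleomycin effect is below 0 for all 10 genes, and after bleomycin the intervals for the CAV1 blocker set against the control blocker all include 0.

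Whether the bleomycin effect differed between the blockers was tested by the interaction, and with all 16 arrays no gene of the 20304 was called (0%). At an unadjusted p under 0.05, 4 of the 10 genes had a more negative effect with the CAV1 blocker, against 6.01% of all genes: Klrd1 (difference of log2 differences -0.98), Klra7 (-0.84), Klra8 (-0.71) and Klrb1c (-0.47), each with limma adjusted p = 0.497. The comparisons within each blocker share no arrays. The interaction rests on the 2 PBS arrays of each blocker, and those with the control blocker differed from each other. Array 1 and array 2 of PBS with the control blocker had 9.60 and 9.03 for Klra8, 9.24 and 8.44 for Klrd1, 8.07 and 7.40 for Klrb1c and 10.95 and 11.72 for Nkg7. Array 1 was above all 12 bleomycin arrays for 6 of the 10 genes and array 2 for 2, Prf1 and Nkg7. Without array 1, the interaction was -1.08 for Klra7, -0.99 for Klra8, -0.81 for Klrb1c and -1.38 for Klrd1. The calls changed in this fit, but it leaves 1 array in that group, so only the differences are given. Without array 2 the interaction was -0.60 for Klra7, -0.42 for Klra8, -0.14 for Klrb1c and -0.58 for Klrd1. PBS control blocker array 1 also had the highest mean of 20 T cell markers, 9.24 against 8.54 to 8.92 in the other 15 arrays. Its mean of the muscle markers, 12.82, was the highest as well. The part of T cells and of muscle in these differences was not tested.

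After bleomycin, the CAV1 blocker and the control blocker left no detectable difference in these genes. None of the 10 was called by limma, against 1.61% of all genes, and none had an unadjusted p under 0.05, against 9.08% of all genes. The log2 differences ran from -0.20 for Klrd1 (95% interval -0.55 to 0.14) to 0.08 for Nkg7 (-0.23 to 0.40), with a median of -0.06 against -0.01 over all genes. For Klra8 the interval was -0.26 to 0.25, and for Gzma the difference was -0.07 (-0.43 to 0.29). The ranges of the 2 groups overlapped for all 10 genes. Cav1 itself averaged 10.94 ± 0.22 with the CAV1 blocker and 10.70 ± 0.18 with the control blocker (SD, n = 6 each, log2 difference 0.24, limma adjusted p = 0.642).

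After PBS, none of the 10 genes was called between the blockers, against 0.31% of all genes. Klra7 (log2 difference 0.67), Klra8 (0.70), Klrb1c (0.46) and Klrd1 (0.77) had an unadjusted p under 0.05, higher with the CAV1 blocker, against 8.26% of all genes in this direction, with limma adjusted p from 0.244 to 0.352. Both CAV1 blocker arrays lay above both control blocker arrays for these 4 genes and for Ncr1, which was so for 23.7% of all genes. Prf1 and Gzmb differed by -0.01 and 0.01. Without PBS control blocker array 1 the difference was 0.91 for Klra7, 0.99 for Klra8, 0.80 for Klrb1c and 1.17 for Klrd1. With array 2 left out, it was 0.43 for Klra7, 0.42 for Klra8, 0.12 for Klrb1c and 0.38 for Klrd1. Either fit leaves 1 array in the control blocker group, so only the differences are given. The muscle and squamous markers separated these 2 groups entirely, with means of 7.05 and 7.30 against 12.82 and 10.24 for muscle, so tissue makeup and blocker cannot be told apart between the PBS groups.

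Tissue makeup also touched the bleomycin comparison with the CAV1 blocker, where both PBS arrays but only 1 of 6 bleomycin arrays were low in muscle and squamous transcripts. Within the 5 low arrays alone, the log2 difference between bleomycin and PBS with the CAV1 blocker was -1.003 for Gzma, -0.74 for Klra8, -0.72 for Klra7, -0.79 for Gzmb and -0.60 for Prf1. These values set 1 bleomycin array, number 3, against 2 PBS arrays and are given as a description with no test. With the split of low and high arrays as a block, no gene of the 10 was called with the CAV1 blocker, and the averaged effect was -0.81 for Gzma, -0.55 for Klra8, -0.52 for Prf1, -0.51 for Gzmb and -0.41 for Klrb1c, all with limma adjusted p under the threshold, and -0.45 for Klra7 (limma adjusted p = 0.0766).

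**Figure D3:**
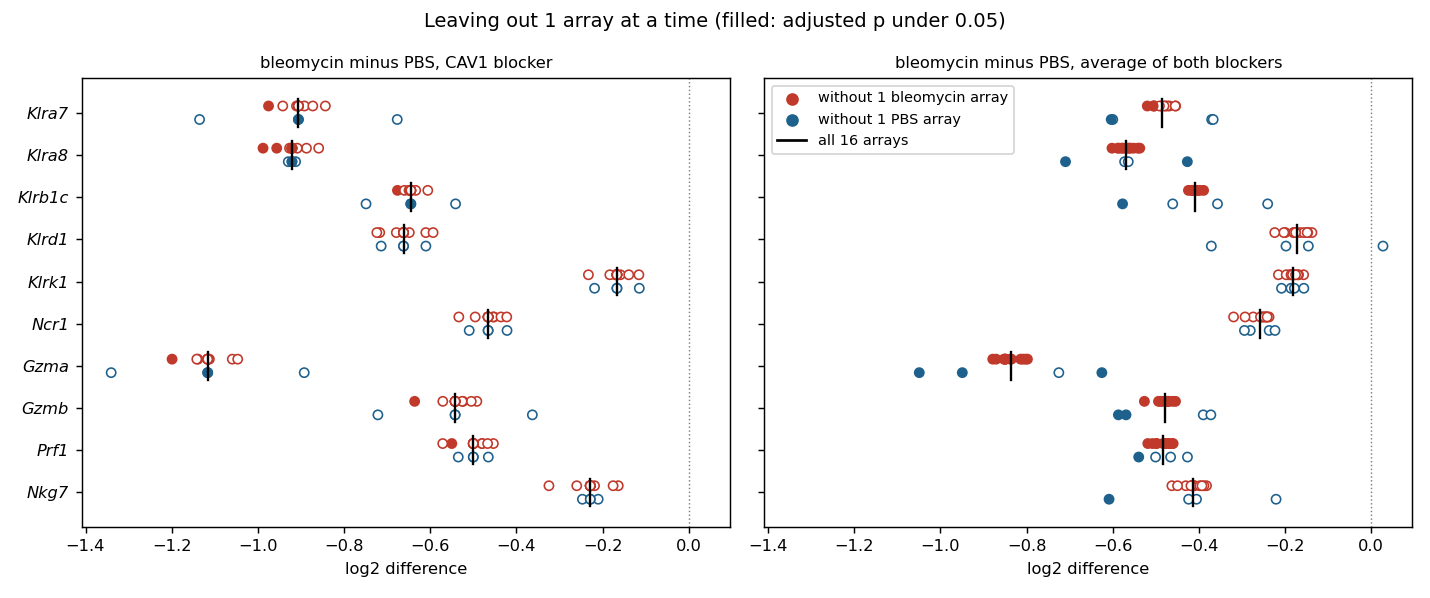
Log2 difference between bleomycin and PBS (x axis) for each of the 10 genes (y axis) when 1 of 16 arrays is left out, for the CAV1 blocker and for the average of both blockers; red points lack a bleomycin array, blue points a PBS array, filled points have a limma adjusted p under 0.05, and the black line is the value with all arrays. In the averaged effect the Gzma value runs from -1.05 to -0.63 and that of Prf1 from -0.54 to -0.43.

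The calls of the averaged effect depended on single arrays, most of all that of Klra7. Klra7 was no longer called without bleomycin CAV1 blocker array 2, 4, 5 or 6, without bleomycin control blocker array 2, 3, 4 or 5, without either PBS CAV1 blocker array, or without PBS control blocker array 1. The other 5 calls held whichever of the 12 bleomycin arrays was left out. Leaving out PBS CAV1 blocker array 2, which leaves 1 array in its group, ended all 6 calls. The log2 difference was then -0.73 for Gzma and -0.56 for Klra8. Without PBS CAV1 blocker array 1, Gzma and Gzmb were called. Without PBS control blocker array 1, which leaves 1 array in its group, the calls of Klra7, Klrb1c and Gzmb were lost and Nkg7 gained one. The difference was then -0.37 for Klra7, -0.24 for Klrb1c, -0.37 for Gzmb and -0.61 for Nkg7. Without PBS control blocker array 2, Prf1 was no longer called and the other 5 were. Over all 16 arrays left out in turn, the averaged difference stayed between -1.05 and -0.63 for Gzma, between -0.71 and -0.43 for Klra8, between -0.54 and -0.43 for Prf1, between -0.59 and -0.37 for Gzmb, between -0.60 and -0.37 for Klra7, and between -0.58 and -0.24 for Klrb1c.

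The spots of the paralogs were compared because an oligonucleotide probe can bind transcripts of several Klra genes. Klra7 and Klra8 had 3 spots each, and 2 of each were above the array median in all arrays. The averaged bleomycin effect was -0.49 and -0.39 on the 2 bright Klra7 spots and -0.57 and -0.52 on the 2 bright Klra8 spots. The third spot of each gene was below the array median in 16 arrays for Klra7 and in 15 for Klra8, and showed -0.12 and -0.07. The dim Klrb1c spot, below the array median in 13 arrays, showed -0.28, against -0.41 on the bright spot. After the group means were subtracted, the bright Klra7 spot and the bright Klra8 spot had a correlation of 0.79 over 16 arrays, the 2 bright spots of Klra7 of 0.91 and those of Klra8 of 0.90, all of which come from the same arrays.

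Across the family, 34 spots carried the name of one of 14 Klra genes, and 13 of them were above the array median in every array. On these 13 spots, the difference between bleomycin and PBS with the CAV1 blocker ran from -1.04 to -0.50 with a median of -0.91, and 3 were called (Klra7, Klra8 and Klra9), against 0.173% of all named spots called lower. With the control blocker it ran from -0.28 to 0.06 with a median of -0.06, and none was called. Averaged over the blockers it ran from -0.57 to -0.34, and the same 3 spots were called, against 1.6% of all named spots called lower. The 13 spots correlated with each other, after the group means were subtracted, at 0.46 to 0.97 with a median of 0.84 over 78 pairs. Which Klra transcript each probe reported cannot be told apart from these values. The accessions of the spots named Klra22, Klra23 and Klra33 matched no entry of the gene table used here.

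**Figure D4:**
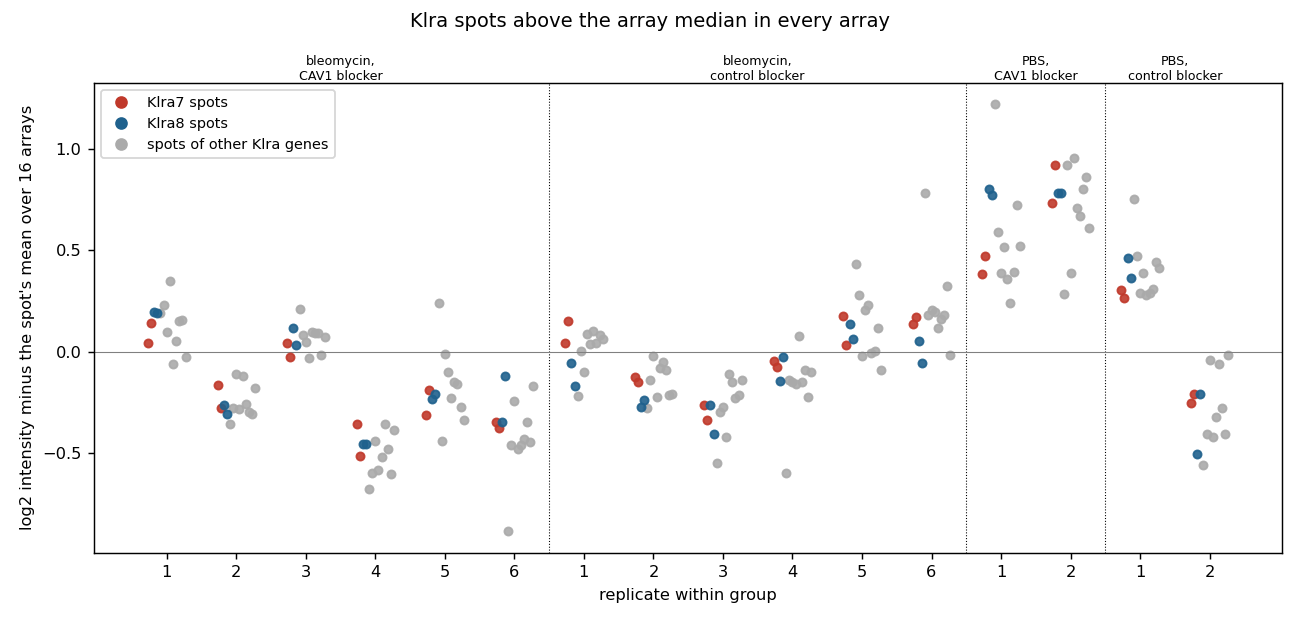
Log2 intensity minus the mean of the spot over 16 arrays (y axis) for the 13 Klra spots above the array median in every array, by array (x axis, replicate number within group); red marks Klra7, blue marks Klra8 and grey marks other Klra genes. PBS CAV1 blocker array 2 or 1 is the highest array for each of the 13 spots, and PBS control blocker array 2 lies among the bleomycin arrays or below them.

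Other genes of the NK pathway were counted in lists, which were chosen with earlier results of these data known. The rest of the Klra family (12 genes measured) had 1 gene called in the averaged effect, Klra9, an NK receptor of this family, which fell by 0.51 on the log2 scale (limma adjusted p = 0.00433), and 1.68% of all genes were called lower in that comparison. Klra9 had 7.67, 7.89 and 8.13 in bleomycin lungs with the CAV1 blocker and 7.85, 7.97 and 8.12 with the control blocker, against 8.58 and 8.67 in PBS lungs with the CAV1 blocker and 8.47 and 8.04 with the control blocker. It also fell within the CAV1 blocker (-0.74, limma adjusted p = 0.0277), where 0.172% of all genes were called lower. The median of the 12 averaged differences was -0.38. It includes the dim genes Klra5, Klra6, Klra10, Klra17 and Klra33, whose spots were all below the array median in 15 or 16 arrays. Of 13 other lectin receptors of the NK gene complex, 2 fell in the averaged effect, namely Klrc1, the NKG2A chain that pairs with CD94 (-0.37, limma adjusted p = 0.0466), and Klri2 (-0.34, limma adjusted p = 0.0292). In the same list Klrb1b, an inhibitory receptor, rose (0.31, limma adjusted p = 0.0454), which made 3 of 13 called against 5.93% of all genes. Klrb1a fell with the CAV1 blocker (-0.56, limma adjusted p = 0.0432), where 0.172% of all genes were called lower. The median of the 13 was -0.07.

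The transcription factors of NK cells moved in both directions. Of 8 measured, Eomes and Tbx21, the T-box factors of NK cell maturation, fell in the averaged effect, and Nfil3, a factor of early NK development that other cells also express, rose, against 1.68% of all genes called lower and 4.25% called higher. Tbx21 had 7.13, 7.37 and 7.59 in bleomycin lungs with the CAV1 blocker and 7.36, 7.48 and 7.63 with the control blocker, against 7.64 and 7.83 in PBS lungs with the CAV1 blocker and 7.87 and 7.75 with the control blocker. All 12 bleomycin arrays were below all 4 PBS arrays for Tbx21, as they were for 0.433% of all genes (log2 difference -0.33, limma adjusted p = 0.0311). Eomes differed by -0.33 on average (limma adjusted p = 0.0191). With the CAV1 blocker it differed by -0.63 (limma adjusted p = 0.0277), where 0.172% of all genes were called lower. PBS control blocker array 1 (7.15) was above all 12 bleomycin arrays for Eomes, and array 2 (6.90) was inside their range. Nfil3 differed by 0.62 on average (limma adjusted p = 0.0325). With the control blocker it differed by 0.97 (limma adjusted p = 0.0387), where 1.96% of all genes were called higher. The list median was -0.05.

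Some adaptors and receptors that NK cells share with myeloid cells rose. Of 18 NK signalling and surface genes, Tyrobp, the DAP12 adaptor that Klra8 signals through and that macrophages also use, rose by 0.53 on average (limma adjusted p = 0.0011), by 0.49 with the CAV1 blocker and by 0.57 with the control blocker. Fcgr3, the Fc receptor CD16, rose by 0.80 on average and by 1.00 with the CAV1 blocker, and Slamf7 rose by 0.41. Of all genes, 0.345% were called higher with the CAV1 blocker and 1.96% with the control blocker. Cd244a fell by 0.24 (limma adjusted p = 0.0368), which made 3 genes higher and 1 lower, against 4.25% of all genes called higher. The list median was -0.01. Of 10 leukocyte and myeloid markers, Adgre1 (0.66) and Itgax (0.70), found on macrophages and dendritic cells, rose on average, 2 of 10 against 4.25% of all genes. Adgre1 also rose with the control blocker (0.95), where 1.96% of all genes were called higher. The median of these 10 markers was -0.05. The part of myeloid cells in the rise of Tyrobp and Fcgr3 was not tested.

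Among genes that call or feed NK cells, 3 of 12 rose in the averaged effect, against 4.25% of all genes, and none fell past the threshold. Of 12 supporting cytokines and chemokines, Cxcl9 and Cxcl10, ligands of the receptor CXCR3, and Il12b, a subunit of interleukin 12, rose in the averaged effect by 0.80, 1.16 and 0.65 (limma adjusted p = 8.89e-04, 2.45e-04 and 0.00341). These 3 genes also rose with the control blocker (0.92, 1.63 and 0.77), where 1.96% of all genes were called higher and 0.448% lower, and none of them was called with the CAV1 blocker, where 0.345% were called higher. Cxcl10 had 9.01, 9.19 and 9.41 in bleomycin lungs with the CAV1 blocker and 9.50, 9.79 and 10.10 with the control blocker, against 8.45 and 8.55 in PBS lungs with the CAV1 blocker and 8.51 and 7.77 with the control blocker. After bleomycin, Cxcl10 was lower with the CAV1 blocker than with the control blocker (log2 difference -0.57, limma adjusted p = 0.0244), where 0.414% of all genes were called lower and 1.2% higher. Il15ra, which presents interleukin 15 to NK cells, was higher with the CAV1 blocker after bleomycin (log2 difference 0.69, limma adjusted p = 6.70e-04), with 11.33 to 11.56 in the 6 CAV1 blocker arrays and 10.61 to 10.80 in the 6 control blocker arrays. The list median of the averaged effect was -0.07. Of 16 ligands of NK receptors, H60c and Raet1e, ligands of NKG2D, and Cd48, the ligand of the receptor encoded by Cd244a, rose by 0.36, 0.34 and 0.25 on average, 3 of 16 against 4.25% of all genes called higher. With the CAV1 blocker H60c rose by 0.61, where 0.345% of all genes were called higher. Its 2 PBS arrays there, 6.49 and 6.37, were below the array median. With the control blocker Cd48 rose by 0.40, where 1.96% of all genes were called higher. The median of the 16 was 0.08.

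Other cytotoxic effectors and cytokines (22 genes) had 1 gene called in the averaged effect, Ctsc, the protease that activates granzymes and that myeloid cells also hold, which rose by 0.54 (limma adjusted p = 0.00368) and by 0.59 with the control blocker. A count of 1 in 22 is near the 5.93% of all genes called in the averaged effect, and with the control blocker 1.96% were called higher. None of them fell past the threshold, and the list median was 0.02. Of 4 measured markers of type 2 innate lymphoid cells, Rora fell (-0.30) and Hpgds rose (0.54) on average, where 5.93% of all genes were called. Both did so with the control blocker (-0.43 and 0.64), where 0.448% of all genes were called lower and 1.96% higher. The median of the 4 averaged differences was -0.09. Hpgds was lower with the CAV1 blocker after bleomycin (-0.46), as was Itgam of the myeloid list (-0.94), where 0.414% of all genes were called lower.

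T and B cells are other lymphocytes of the lung, and no marker of theirs passed the threshold in the averaged effect. Of 20 T cell markers, 0 were called by limma in the averaged effect, against 5.93% of all genes, with a median of -0.21. At an unadjusted p under 0.05, 8 were lower and 1 higher, against 7.08% of all genes lower and 10.3% higher. Cd3e, a chain of the T cell receptor complex, fell with the control blocker (-0.63, limma adjusted p = 0.0302), where 0.448% of all genes were called lower. Its 6 bleomycin arrays with that blocker ran from 9.63 to 9.99 against 10.50 and 10.27 in the PBS arrays. Cd8a and Cd8b1 differed by -0.63 and -0.58 on average without a call (limma adjusted p = 0.0829 and 0.127). Of 6 B cell markers, 0 were called and 4 were lower at an unadjusted p under 0.05, against the same 7.08% of all genes. Their median was -0.39, and that of the 10 NK genes was -0.45. The mean T cell marker level was 8.54 to 8.92 and 8.59 to 8.73 in bleomycin lungs with the CAV1 and the control blocker, against 8.61 to 8.72 and 8.61 to 9.24 in the matching PBS lungs. The mean of the 10 NK genes was 8.38 to 8.85 and 8.51 to 8.74 in the same bleomycin groups, against 9.14 to 9.28 and 8.75 to 9.04 in the PBS groups. The B cell marker mean was 8.90 to 9.50 and 8.85 to 9.44, against 9.59 to 9.64 and 9.37 to 9.75. The part of T and B cells in the NK gene differences was not tested. Of the 10 lung epithelium and endothelium, 12 muscle and 13 squamous markers, 0 were called by limma in any bleomycin comparison, and their averaged medians were -0.13, 0.63 and 0.75. At an unadjusted p under 0.05, 9 muscle and 10 squamous markers were higher in bleomycin than in PBS lungs with the CAV1 blocker, against 7.15% of all genes. With the control blocker, 3 muscle markers were lower, against 5.41% of all genes.

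**Figure D5:**
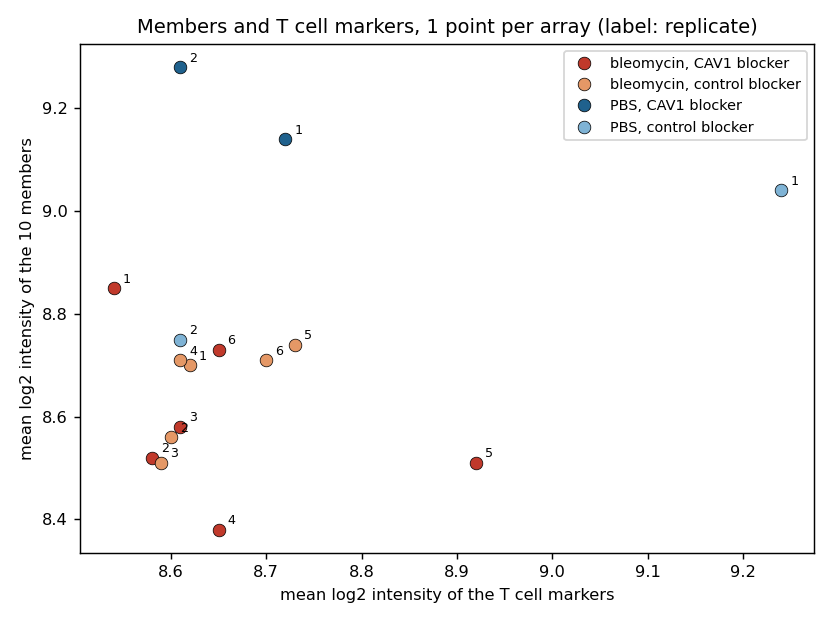
Mean log2 intensity of the 10 NK genes (y axis) against that of the 20 T cell markers (x axis), 1 point per array labelled by its replicate number, coloured by group. Both PBS CAV1 blocker arrays and PBS control blocker array 1 lie at 9.04 to 9.28 for the NK genes, above all 12 bleomycin arrays, and PBS control blocker array 2 lies at 8.75 among them.

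The 10 genes did not vary as 1 block within groups. After the group means were subtracted, the correlations of the 45 pairs over 16 arrays ran from -0.71 to 0.91 with a median of 0.36. Klra8 and Gzma were the most alike (0.91), and Klrd1 and Nkg7 the least (-0.71). Nkg7 and Prf1 had a correlation of 0.66, whereas Nkg7 had -0.44 with Klra7 and -0.29 with Klra8. The 5 other genes most like the mean of the 10 were Ms4a4b (0.82), Cxcl9 (0.81), Gm9733 (0.80), Ccdc7a (0.79) and Papolb (0.79). For Klra7 they were Klra23 (0.96), Klra22 (0.96), Cysltr2 (0.94), Pstpip2 (0.90) and Klra4 (0.90), and for Klra8 they were Klra16 (0.88), Lrrn4cl (0.86), Leng9 (0.85), Klra22 (0.85) and Cyp4a29 (0.84). All these values share the same arrays and are descriptions without a test.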

How the data were processed

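RNA of 16 lung samples was measured on 1 single-colour Agilent array each. The deposited values are log2 intensities made by the authors with limma, per the submitters' processing notes. Background correction, normalization, slide and scan date are not given in the sources used here, no detection marks were used, and the number of arrays limits precision. Accessions matched 29050 of 31465 named spots to RefSeq names (GRCm38.p6).

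A gene was represented by its spot with the highest mean. The 20304 genes above the 25th percentile of 2 or more arrays were tested, the 10 NK genes included. A model with 1 mean for each group over the 16 arrays (12 residual degrees of freedom) was fitted in R 4.3.3 by lmFit and eBayes of limma 3.58.1, two-sided. Called means an adjusted p (Benjamini-Hochberg, every tested gene counted) under 0.05. The averaged effect uses the arrays of both comparisons within a blocker, and the comparisons between blockers share arrays with them. The fit was tested on simulated data. Promoters were aligned with Biopython 1.88 on Python 3.11.15 (match 2, mismatch -1, gap opening -3, gap extension -1).

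The 10 genes and all lists were chosen with earlier results of these data known. By rule, every called gene of a list was to be named, and up to 4 with the smallest p. Samples were grouped by their titles. Replicate numbers were not taken to pair the samples. Alternatives covered filters, spot summaries, normalization, moderation, array weights, the arrays fitted, blocks, covariates for muscle and squamous transcripts, a fold minimum and each array left out.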

Additional observations from a re-analysis of the deposited data

Results flagged for a closer look

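In 1 of 20 sets of 6 values (10 genes in each of the bleomycin groups), 1 array stood far from the rest by Dixon's test. Ncr1 was 7.59 in bleomycin control blocker array 5, and the nearest array of the group was at 6.96, a gap of 0.801 of the range of the group. Chance flags about 1 in 20 groups. RNA integrity was 10 in this array and in array 1 of the same group, and its part in the Ncr1 value was not tested.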

How the results depend on the processing

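Counts of called genes among the 10 are given by setting, with the number of all genes called in parentheses. For bleomycin against PBS with the CAV1 blocker the count was 2 (105). It was 0 with a log2 fold minimum of 1 (39) and with a fit to the compared arrays only (0). It was also 0 with a covariate for muscle (9) or squamous transcripts (9). A block of low and high arrays, chosen after seeing the data, gave 0 (7). The count was 4 with the dim filter at the 50th percentile (164) and 8 with array weights (2712). The 5 low arrays alone, also chosen after seeing the data, hold 1 bleomycin array of this comparison, so no count is given. For the averaged effect the count was 6 (1204). It was 0 with a log2 fold minimum of 1 (108) and 3 with array weights (367), namely Klra8, Gzma and Prf1. The cause was not tested. Leaving out 1 bleomycin array at a time gave 0 to 6 calls with the CAV1 blocker, 5 or 6 averaged and 0 in the other comparisons. With the CAV1 blocker, all genes called moved too, for example 719 without bleomycin CAV1 blocker array 1 and 10 without its array 5. Leaving out a PBS array left 1 in its group, whose spread was then taken to equal that of the others. No called difference changed sign under any setting. With the replicate number as a block, the counts were 0 with the CAV1 blocker (0) and 0 averaged (9), with limma adjusted p = 0.192 for Gzma and 0.238 for Klra8. Same-numbered bleomycin arrays correlated at -0.69 to 0.35 after group means were subtracted, and 3 of 6 pairs were over 0.1. Of 6 bleomycin arrays, 2 correlated best with their own number. Pairs 2, 3 and 6, at -0.34, -0.69 and -0.52, each joined a low and a high array. These correlations therefore cannot decide whether the numbers pair the samples. With 2 PBS arrays per blocker, differences between the blockers after PBS and their interaction with bleomycin were measured with little precision.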
